A study of Mus musculus with 2 samples.

Results

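The genes described here are 10 immediate early genes, Fos, Fosb, Fosl2, Jun, Junb, Jund, Egr1, Egr3, Ier2 and Nr4a1, taken by symbol from a table of 32813 gene symbols. All 10 symbols were in the table and 9 were above 0 in either library, while Egr3 was listed at 0 in both. The samples are 2 libraries of total RNA, replicate 1 and replicate 2, and they form the only group of the series. Both came from mouse retina of the Htr3a-GFP line, in which the promoter of the serotonin receptor subunit gene Htr3a drives green fluorescent protein. The retinas were dissociated, and type 5 bipolar cells, a class of cone bipolar cell, were sorted by fluorescence into RNAlater before an amplifying library kit was used. No light, drug or dopamine treatment is given in the labels. The sources used here do not give the age or sex of the animals, how many animals a library holds, or the time between dissection and sorting. Values are in TPM, a measure scaled for gene length in which every library has the same total. It keeps no read depth, so counting error could not be computed. In the design text they are biological replicates, and every spread below is over these 2.

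Immediate early genes are switched on by signals already present in the cell, without new protein synthesis, and their RNAs are short-lived. Calcium, cyclic AMP and growth factor signals reach their promoters through the transcription factors CREB and SRF, and neuronal activity, dopamine and the stress of dissociation are all known to raise them. Fos and Jun proteins pair to form the transcription factor AP-1: Fos proteins need a Jun partner, whereas Jun proteins can also pair among themselves. None of the 10 genes encodes a receptor, enzyme or effector of dopamine, so the dopamine genes are given separately below.

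Egr1 led the set and was the only member of high level in both libraries. Below it stood a middle group of Fos, Ier2, Jund and Jun, then Junb and Nr4a1, then Fosb and Fosl2 near or at 0. Fos, Egr1 and Nr4a1 were several-fold higher in replicate 1, Jun was far higher in replicate 2, and Jund differed least of the members listed above 0 in both. The lowest Egr1 value lay above the highest value of every other member, and below Egr1 each member's range over the 2 libraries overlapped that of the next in order of mean TPM.

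**Figure D1:**
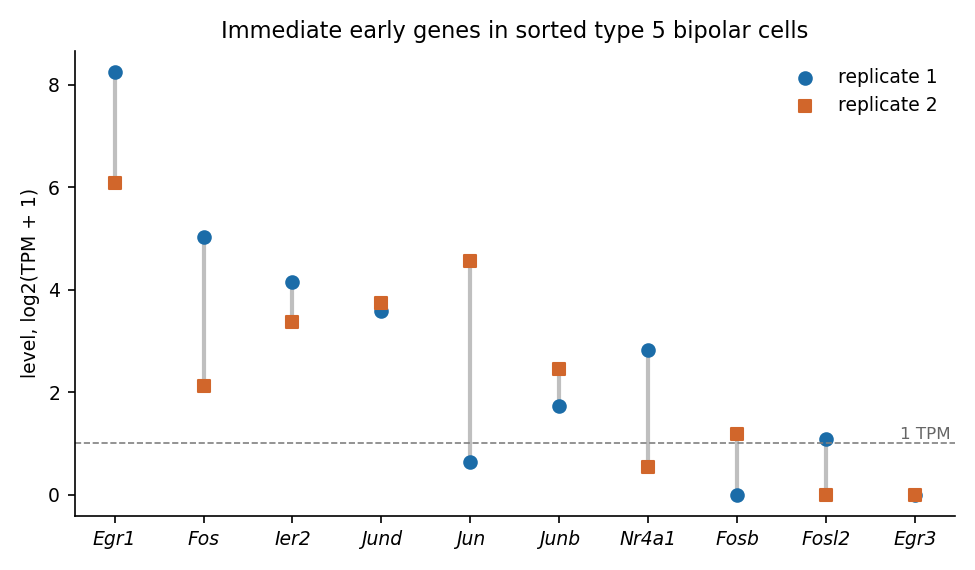
The level of each of the 10 genes as log2(TPM + 1), in order of mean TPM, with a circle for replicate 1, a square for replicate 2 and a grey bar between them; the dashed line is 1 TPM. Egr1 stands apart from the rest in both libraries, at 304 and 66.3 TPM, while Jun spans 0.56 to 22.6 TPM and Jund 10.96 to 12.3 TPM.

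Egr1 encodes a zinc finger transcription factor that binds GC-rich promoter sites and is widely used as a marker of neuronal activity. It was listed at 304 TPM in replicate 1 and 66.3 TPM in replicate 2, a mean of 185 ± 168 TPM (SD, n = 2). Its mean ranked 723 among all symbols, and it lay at percentile 97.8 of the genes above 0 in replicate 1 and percentile 86.1 in replicate 2. The difference on the log2(TPM + 1) scale was -2.18 (replicate 2 minus replicate 1), or 4.58-fold in TPM. Of the 1584 genes averaging 100 to 1000 TPM, 20 were at least as far apart, which is 1.26%. Egr3, a relative that follows Egr1 in many neurons, was listed at 0 in both libraries.

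Fos encodes the founding partner of AP-1. It was listed at 31.5 TPM in replicate 1 and 3.33 TPM in replicate 2, a mean of 17.4 ± 19.9 TPM (SD, n = 2). Its log2 difference of -2.91, or 9.44-fold, was matched or passed by 276 of 8216 genes with a mean of 10 to 100 TPM, which is 3.36%. Among the genes above 0 in each library, Fos lay at percentile 69.7 in replicate 1 and percentile 30.9 in replicate 2. The other Fos-family members were each listed at 0 in 1 library. Fosb, whose truncated product accumulates in chronically driven neurons, was listed at 0 in replicate 1 and 1.26 TPM in replicate 2, and Fosl2, which encodes Fra-2, at 1.13 TPM in replicate 1 and 0 in replicate 2. Of the 19968 genes above 0 in either library, 19.7% were likewise listed at 0 in the other.

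Jun, the partner of Fos in the classical AP-1 dimer, was placed the opposite way. It was listed at 0.56 TPM in replicate 1 and 22.6 TPM in replicate 2, a mean of 11.6 ± 15.6 TPM (SD, n = 2). The log2 difference of 3.92 was matched or passed by 166 of the 8216 genes averaging 10 to 100 TPM, which is 2.02%. Junb, an AP-1 member induced along with Fos in many cells, was listed at 2.3 TPM in replicate 1 and 4.44 TPM in replicate 2. Jund, the Jun-family gene that most cells transcribe without a stimulus, was listed at 10.96 and 12.3 TPM, a mean of 11.6 ± 0.95 TPM. Jund was the most closely matched of these genes: 87.3% of genes of its level range were at least as far apart.

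The summed level of the Fos and Jun families was nearly the same in both libraries, but different genes made it up. The 6 genes summed to 46.4 TPM in replicate 1 and 43.97 TPM in replicate 2. Fos made up 67.8% of the sum in replicate 1 and 7.57% in replicate 2, and Jun 1.21% and 51.5%. Jund gave 23.6% and 27.97%, and Junb 4.96% and 10.1%. Fos-family RNA therefore stood at 2.36 times Jun-family RNA in replicate 1 and at 0.117 times in replicate 2. Within the Jun family Jund was the most abundant member in replicate 1, at 79.3% of the Jun-family sum, and Jun in replicate 2, at 57.5%. These shares add TPM within a library, are not corrected for the spread of each gene, and were not tested.

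**Figure D2:**
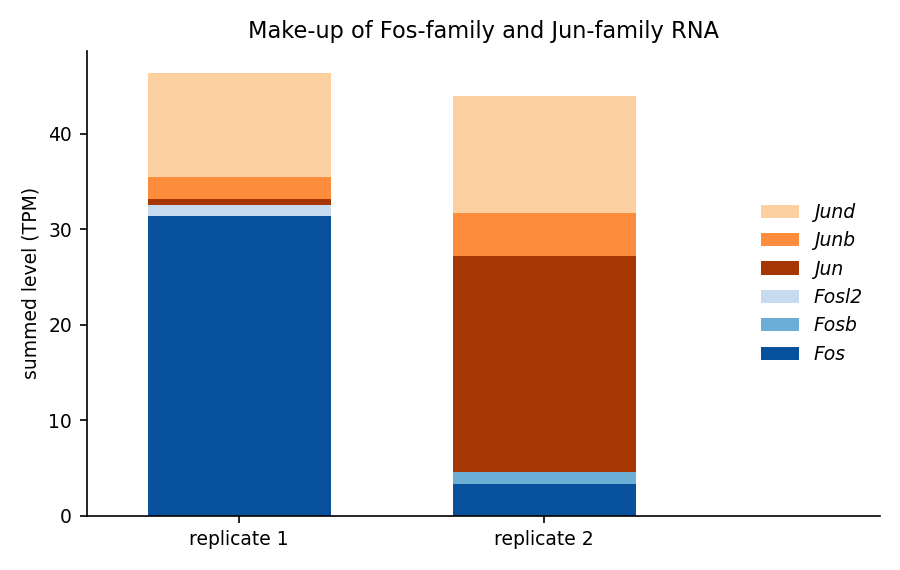
Stacked TPM of the 3 Fos-family genes (blue) and the 3 Jun-family genes (orange and brown) in each library, with the axis starting at 0. The bars reach 46.4 and 43.97 TPM, and the largest piece is Fos in replicate 1 and Jun in replicate 2.

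The stretch before the start of Fos and Jun is shown because these 2 genes lay on opposite sides of the replicate difference, with Fosb and Junb as their relatives; for these 4 genes the start in RefSeq lies within 30 bases of that in GENCODE M21. Each line gives the 120 bases that end at the base before the RefSeq start (GRCm38.p6), 5′ to 3′ on the strand of the gene. Capitals mark TGACG, the core of the cyclic AMP response element bound by CREB, the related TGACATCA, and TATAAA, the letters of a TATA box.
Fos, chr12:85473770-85473889, plus strand: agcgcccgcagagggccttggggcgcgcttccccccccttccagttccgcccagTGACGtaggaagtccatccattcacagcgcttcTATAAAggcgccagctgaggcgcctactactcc
Fosb, chr7:19310046-19310165, minus strand: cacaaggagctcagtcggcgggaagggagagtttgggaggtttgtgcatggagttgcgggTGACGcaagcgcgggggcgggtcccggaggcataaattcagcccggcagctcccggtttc
Jun, chr4:95052223-95052342, minus strand: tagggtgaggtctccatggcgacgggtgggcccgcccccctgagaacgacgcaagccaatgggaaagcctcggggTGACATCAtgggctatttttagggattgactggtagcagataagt
Junb, chr8:84978749-84978868, minus strand: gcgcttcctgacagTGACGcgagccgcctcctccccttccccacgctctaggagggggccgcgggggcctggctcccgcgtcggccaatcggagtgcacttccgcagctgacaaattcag

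In these stretches TGACG lay from 66 to 62 bases before the start of Fos, from 60 to 56 before Fosb and from 106 to 102 before Junb. Jun had TGACATCA from 45 to 38 bases before its start, and Fos had TATAAA from 33 to 28. Windows of 250 bases before the RefSeq start were searched on both strands for 7 of the 10 genes: these 4, Fosl2, Jund and Nr4a1, but not Egr1, Egr3 and Ier2. TGACG was in 4 of the 7 (Fos, Fosb, Junb and Nr4a1) against 17.8% of 32851 windows, and TATAAA in 1 of 7 (Fos) against 12.4%. TGACATCA was in 1 of 7 (Jun) against 2.93%. The EGR site GCGNGGGCG was in 3 of 7 (Fosb, Fosl2 and Nr4a1) against 4.70%. The SP1 GC box GGGCGG was in 5 of 7 (Fos, Fosb, Fosl2, Jun and Nr4a1) against 32.7%. In Fosb, Fosl2 and Nr4a1 a GC box overlapped the EGR site. The full element TGACGTCA, which contains TGACG, was in 0 of 7 against 1.55%, the AP-1 site TGANTCA in 0 of 7 against 6.75%, and the CArG box of SRF in 0 of 7 against 1.47%. A match describes the letters only, and a site further upstream, or in Egr1, Egr3 or Ier2, would not be seen. For Nr4a1 the window used lies inside the GENCODE gene model, 12577 bases from its 5′ end, so its matches belong to an inner start. The RefSeq start of Fosl2 likewise lies 671 bases inside its GENCODE model, and that of Jund 1210 bases before its GENCODE start.

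Ier2 and Nr4a1 complete the set. Ier2, a short gene whose nuclear product is induced by serum and growth factors, was listed at 16.8 TPM in replicate 1 and 9.28 TPM in replicate 2, a mean of 13.0 ± 5.30 TPM (SD, n = 2). Its log2 difference of -0.79 was matched or passed by 38.9% of genes of its level range. Nr4a1, an orphan nuclear receptor gene also called Nur77, was listed at 6.11 TPM in replicate 1 and 0.46 TPM in replicate 2, a mean of 3.29 ± 4.0 TPM. Its log2 difference was -2.28, and 17.7% of the 6128 genes averaging 1 to 10 TPM were at least as far apart.

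The members over fixed lines of level were counted beside all genes of the table. Egr3, at 0 in both libraries, was not tested, so counts are over the 9 members above 0, as all genes tested are. In limma's one-sided test on log2(TPM + 1) with Benjamini-Hochberg adjustment, 4 of the 9 were called above 1 TPM (Egr1, Fos, Ier2 and Jund), or 44.4%, where 55.5% of the 19968 genes tested were called. Above 10 TPM only Egr1 was called, against 32.4% of all genes. No member was called above 100 TPM, against 4.08% of all genes, while 1 member, Egr1, passed that line at an unadjusted p under 0.05 and was called there after rescaling without mitochondrial genes. This fit set each gene's error from the trend over abundance alone, so the wide gaps of Fos and Egr1 between their own libraries did not enter their calls. Without a test, 5 of the 9 had at least 1 TPM in both libraries (Egr1, Fos, Ier2, Jund and Junb), against 67.6% of all genes tested. Each library alone had 7 of the 9 at or over 1 TPM, against 77.7% of all genes tested in replicate 1 and 74.5% in replicate 2, so these counts are near the background. The median level of the 9 members above 0 was 2.60 on the log2(TPM + 1) scale, against 3.22 over all genes above 0.

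The gap between the libraries was wide for Fos, Jun and Egr1. Of the 4 members with a mean of 10 to 100 TPM, Fos and Jun lay over 2 log2 units apart, as did 7.42% of the genes of that range, and the member at 100 to 1000 TPM, Egr1, did too, as did 1.39% of genes there. Over all genes averaging at least 10 TPM the share was 6.45%. With 2 libraries of 1 group this gap has no test. The median member had a log2 difference of -0.79 and the median gene one of -0.20 (both replicate 2 minus replicate 1), and mitochondrial RNA took 17.3% of replicate 1 and 24.6% of replicate 2. The direction of each of the 9 members was the same after rescaling without mitochondrial genes and after shifting replicate 2 to a median ratio of 0: Egr1, Fos, Fosl2, Ier2 and Nr4a1 were higher in replicate 1, and Fosb, Jun, Junb and Jund in replicate 2. Both changes raise replicate 2 against replicate 1, so members higher in replicate 2 could not reverse, nor could Fosl2, at 0 in replicate 2. The median ratio taken out by the shift was -0.28 log2 units. Both changes were small beside the gaps of Egr1, Fos, Ier2 and Nr4a1. Ier2, with the smallest of these gaps, moved from -0.79 to -0.68 on rescaling and to -0.53 on the shift. The kept directions were thus set in advance and are no check. The shift moved the Egr1 difference to -1.90, just under 2 log2 units.

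Other immediate early genes were led by Bhlhe40 and Btg1, the 2 of highest mean TPM. Of 45 on a list of further genes of this class, 44 were in the table and 38 above 0 in either library. Above 1 TPM 19 were called (limma, adjusted over all genes) and above 10 TPM 9, against 55.5% and 32.4% of all genes above 0, so the count above 1 TPM is near the background. Bhlhe40, a helix-loop-helix repressor tied to the circadian clock, was at 153 TPM in replicate 1 and 74.1 TPM in replicate 2. Btg1, an antiproliferative gene, was listed at 97.0 and 79.7 TPM. Mcl1, a survival gene of the BCL2 family, was at 40.5 and 73.5 TPM, and Dusp1, a phosphatase that shuts off MAP kinases, at 40.6 and 70.7 TPM. At the other end Npas4, the most neuron-specific gene of the class, and Ptgs2, Cebpb, Gadd45b, Ier5l and Plk3 were listed at 0 in both libraries. Arc, a synaptic immediate early gene named here after its values were seen, was at 3.34 TPM and 0. Of the 17 genes of this list averaging at least 10 TPM, 0 lay over 2 log2 units apart, against 6.45% of all genes of that level, and their differences ran from -1.04 to 1.29. Of the 21 above 0 with a lower mean, 5 were over 2 log2 units apart, against 14.5% of all such genes: Arc was higher in replicate 1, and Zfp36, Klf2, Dusp6 and Cyr61 in replicate 2. The summed level of the list was 665 TPM in replicate 1 and 662 TPM in replicate 2.

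**Figure D3:**
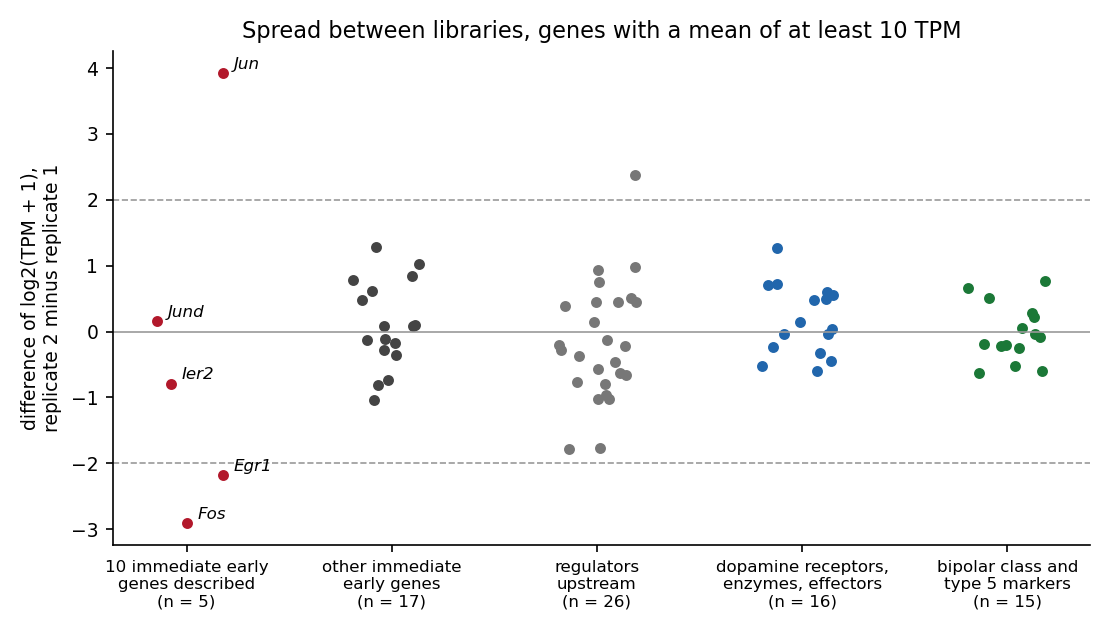
The difference of log2(TPM + 1), replicate 2 minus replicate 1, for each gene averaging at least 10 TPM in 5 groups; sideways scatter is only for legibility and dashed lines mark 2 log2 units. Jun lies at 3.92, Fos at -2.91, Egr1 at -2.18, Ier2 at -0.79 and Jund at 0.15. The 17 other immediate early genes lie between -1.04 and 1.29 and the 15 bipolar markers between -0.63 and 0.76. The groups were not matched for level. Over all genes the median gap was 0.62 log2 units at 10 to 100 TPM and 0.37 at 100 to 1000 TPM.

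Closer relatives of the members were mostly low. Of 8 other bZIP genes of the AP-1 group, 5 were above 0 in either library and so tested. Atf2 and Jdp2 were called above 1 TPM, or 40% of these 5, where 55.5% of all genes tested were called. Atf2, a Jun partner that is activated by phosphorylation, was listed at 197 TPM in replicate 1 and 209 TPM in replicate 2, and Jdp2, a repressor that pairs with Jun, at 9.19 and 12.9 TPM. Atf7 was listed at 0 in replicate 1 and 40.6 TPM in replicate 2, and Fosl1, which encodes Fra-1, at 1.31 and 4.54 TPM. Batf, Batf2 and Batf3, bZIP genes of immune cells, were listed at 0 in both. None of the remaining EGR and NR4A genes was called above 1 TPM or passed that line at an unadjusted p under 0.05 in limma. Nr4a2 had 3.75 and 1.18 TPM and Egr2 0.59 and 2.72, while Egr4, listed at 0 in both libraries, was not tested. Nab1, a co-repressor that EGR proteins recruit, was called, at 59.4 TPM in replicate 1 and 27.9 TPM in replicate 2. Nab2, its relative, was at 2.95 TPM and 0. On the list of these EGR and NR4A genes with Nab1 and Nab2, 5 genes were above 0. Of these 5 only Nab1 was called above 1 TPM, or 20%, against 55.5% of all genes tested.

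The machinery upstream of these genes was broadly expressed. Of 32 kinases, transcription factors and coactivators on this list, 28 were called above 1 TPM and 24 above 10 TPM, against 55.5% and 32.4% of all genes. Mef2d, a calcium-responsive MADS-box factor, was listed at 213 TPM in replicate 1 and 304 TPM in replicate 2. Atf1, a CREB relative, was at 133 and 102 TPM. Crtc2, a coactivator of CREB, was at 26.1 and 139.6 TPM, the single gene of 26 on this list averaging at least 10 TPM that lay over 2 log2 units apart. The lowest were Rps6ka4, the kinase MSK2, at 1.86 and 2.62 TPM and Elk3, at 0.32 TPM and 0. The median level of the list was 5.68 on the log2(TPM + 1) scale.

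Of the dopamine receptors, 2 were abundant and closely matched. Drd1a, the gene of the D1 receptor, which raises cyclic AMP, was listed at 281 TPM in replicate 1 and 238 TPM in replicate 2, a mean of 260 ± 30.8 TPM (SD, n = 2). Drd2, the gene of the D2 receptor, which lowers cyclic AMP, was listed at 177 and 172 TPM, a mean of 174 ± 3.14 TPM. Both were called above 100 TPM (limma, adjusted over all genes). Drd1a stood at 1.59 times Drd2 in replicate 1 and 1.38 times in replicate 2. Drd4 was listed at 0 in replicate 1 and 8.72 TPM in replicate 2, and Drd3 and Drd5 at 0 in both.

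Downstream of the receptors, 12 of 14 effector genes were called above 1 TPM, or 85.7%, against 55.5% of all genes tested. Prkar1a, which encodes a regulatory subunit of the cyclic AMP-dependent kinase PKA, was listed at 460 TPM in replicate 1 and 449 TPM in replicate 2, and the catalytic subunit genes Prkacb at 136 and 151 TPM and Prkaca at 113 and 167 TPM. Gnas, the stimulatory G protein subunit, was at 121 and 201 TPM. The lowest were the adenylyl cyclase genes Adcy6, at 3.45 and 2.68 TPM, and Adcy1, at 0.14 and 1.97 TPM. Of 8 genes of dopamine synthesis, transport and breakdown 4 were called, which is 66.7% of the 6 above 0 and near the share of all genes. Among them were Maoa, a monoamine oxidase gene, at 17.7 TPM in replicate 1 and 11.3 TPM in replicate 2, Th, the rate-limiting enzyme of dopamine synthesis, at 13.3 and 2.55, and Ddc at 6.65 and 6.48. The transporter Slc6a3 and the oxidase Maob were listed at 0 in both libraries. Of the 16 dopamine genes averaging at least 10 TPM, 0 lay over 2 log2 units apart, against 6.45% of all genes of that level, with differences from -0.61 to 1.27. Of the 7 above 0 with a lower mean, Drd4, Th and Dbh lay over 2 log2 units apart, against 14.5% of all such genes. The series holds no treated or dark-adapted group, so no relation between these receptors and the immediate early genes could be measured.

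**Figure D4:**
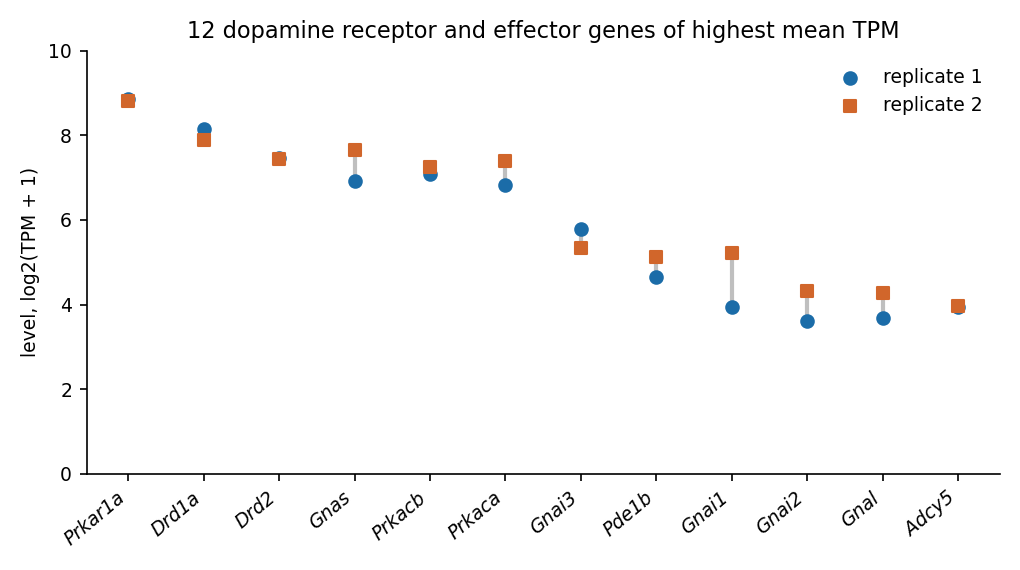
Levels of the 12 dopamine receptor and effector genes of highest mean TPM as log2(TPM + 1), with a circle for replicate 1 and a square for replicate 2. Prkar1a, Drd1a and Drd2 lie at the left with nearly coinciding symbols, at 460 and 449, 281 and 238, and 177 and 172 TPM.

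Markers of other retinal cells and of handling differed between the libraries in part. The bipolar class and type 5 markers fixed for this check were called above 1 TPM in 15 of 17 cases, among them Grm6, Cabp5, Otx2 and Htr3a. By list, 10 of 10 class markers but only 5 of 7 type 5 markers were called. Not called were Chrm2, at 0.08 TPM in replicate 1 and 1.15 TPM in replicate 2, and Slitrk5, at 0.55 and 2.15 TPM. Htr3a is no independent marker here, since its promoter drove the fluorescent protein used for sorting. Over all genes tested the share called was 55.5%, which applies to each count called in this paragraph. Genes at 0 in both libraries were not tested, so they are left out of these counts. Summed Muller glia markers (6 of 11 called) came to 195 TPM in replicate 1 and 415 TPM in replicate 2, with Vim at 0.20 and 119 TPM and none of the 11 at 0 in both. Summed rod markers (9 of 11 called) came to 1616 and 1684 TPM. Of the 11 rod markers 9 were higher in replicate 2, while the most abundant, Gngt1, was at 965 and 639 TPM. Amacrine markers (2 of the 7 above 0 called, or 28.6%) summed to 51.3 TPM in each library, but from different genes. Slc6a9 was at 36.6 and 3.12 TPM, Tfap2b at 0.33 and 20.4 TPM and Gad1 at 0.06 and 10.4 TPM. Replicate 1 listed 2 of the 9 with at least 1 TPM and replicate 2 listed 7, and Chat and Calb2 were at 0 in both. Ganglion cell markers (1 of the 5 above 0 called, or 20%) summed to 31.8 and 72.96 TPM, mostly from Thy1 at 28.3 and 63.9 TPM. Nefm, Sncg and Pou4f2 were at 0 in both. Microglia markers summed to 3.41 and 15.8 TPM and vascular markers to 2.32 and 3.23 TPM. Above 0 and tested were 5 microglia and 3 vascular markers, and none was called or passed 1 TPM at an unadjusted p under 0.05 in limma. C1qa, C1qb, Cdh5, Cldn5 and Pdgfrb were at 0 in both. Heat shock genes, of which some respond to handling, summed to 1957 and 2098 TPM with 5 of the 7 above 0 called, or 71.4%. The strongly inducible Hspa1a and Hspa1b, both at 0 in replicate 1, had 2.71 and 0.70 TPM in replicate 2. They made up little of the sum, which is therefore no measure of a response to handling. The part of other cells or of handling in the member differences was not tested, and in bulk libraries fewer cells of a type and less RNA per cell cannot be told apart.

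GENCODE M21 (assembly GRCm38, or mm10) lists all 10 genes as protein-coding, and most are short: the median genomic length was 4698.5 bases against 17318 over 22028 protein-coding genes. Jun (chromosome 4, 95049034 to 95052222, minus strand), Jund (chromosome 8, 70698949 to 70700616, plus) and Ier2 (chromosome 8, 84661331 to 84662852, minus) have a single exon in every annotated transcript. Junb lies on chromosome 8 from 84974484 to 84978718 (minus), Fos on chromosome 12 from 85473890 to 85477273 (plus) and Fosb on chromosome 7 from 19302696 to 19310051 (minus). Fosl2 lies on chromosome 5 from 32135801 to 32157842 (plus), Nr4a1 on chromosome 15 from 101254269 to 101274795 (plus), Egr1 on chromosome 18 from 34859823 to 34864984 (plus) and Egr3 on chromosome 14 from 70077203 to 70082614 (plus). Genes on the opposite strand overlap 3 of the members. Junb shares 351 bases with Prdx2, an antioxidant gene listed at 411 and 365 TPM, Jund shares 919 bases with the antisense gene Gm11175, at 0.12 TPM and 0, and Jun shares 689 bases with the antisense gene Junos, for which no value was used. The sources used here do not say whether counting used strand, so reads of such overlapping stretches cannot be told apart and the Junb values in particular are uncertain.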

How the data were processed

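RNA was measured by sequencing in 2 libraries of sorted mouse type 5 bipolar cells. The authors deposited 1 table of TPM with a column per library (sums of 999999.75 and 999999.66). RSEM 1.2.28, TopHat2 2.0.10 and the build mm10 are named in the submitters' processing notes; the sources used here do not give the annotation, filters or strand setting. The header of replicate 1 misspells Htr3a, and its replicate number gave the match.

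Values were put on the scale log2(TPM + 1). Levels above 1, 10 and 100 TPM were tested across all 19968 genes above 0 in either library with limma 3.58.1 (R 4.3.3): intercept-only model, variance trend, one-sided, Benjamini-Hochberg adjusted p under 0.05. The 2 libraries of 1 group were not tested against each other. Tables and figures used Python 3.11.15, pandas 2.3.3, numpy 2.4.6 and matplotlib 3.10.9. Mean ± SD is omitted where a library lists 0. Promoter sequences are from RefSeq, GRCm38.p6. Symbols not in the table were looked up by an older symbol (Drd1a, Mkl1 and Mkl2).

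The members and gene lists were chosen with earlier results of these data known. The text names all 10 members, every dopamine receptor and, of each other list, up to 4 members of highest and 2 of lowest mean TPM, ties counted as taken, except that some genes are not reported here; Arc, Zfp36, Klf2, Dusp6, Cyr61, Dbh, Hspa1a, Grm6, Htr3a, the genes that overlap members and the genes of the closing section are named beyond this rule and were picked with values in view.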

Additional observations from a re-analysis of the deposited data

How the results depend on the processing

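No paired analysis was possible because the series has a single group. Under 6 other settings of the limma fit (a pseudocount of 0.1, no variance trend, a filter at a mean of 1 TPM, TPM rescaled without mitochondrial genes, replicate 2 shifted to a median ratio of 0, and robust variances), 4 to 5 members were called above 1 TPM, and Egr1 was the 1 member called above 10 TPM in each. Junb joined without the variance trend, and Jun with the filter and with robust variances. Rescaling without mitochondrial genes brought Egr1 over the 100 TPM line (1 member called). Leaving out a library allows no test; the counts at or over the line in the library that remained were 7 and 7 members at 1 TPM, 3 (without replicate 1) and 4 (without replicate 2) at 10 TPM, and 0 and 1 at 100 TPM. For the other immediate early genes such counts at 1 TPM were 30 and 28, against 19 called. The median member difference of -0.79 ran from -0.85 to -0.53 over the other scalings. Depth is unknown, so entries at 0 set no upper limit on a level.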

Other observations

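The 3 CREB-regulated transcription coactivators, which carry calcium and cyclic AMP signals to CREB, did not share a direction between the libraries. Crtc1 was listed at 95.1 TPM in replicate 1 and 26.9 TPM in replicate 2, Crtc2 at 26.1 and 139.6 TPM and Crtc3 at 19.2 and 37.7 TPM. Crem, whose inner promoter makes an inducible repressor of CREB targets, was listed at 43.2 and 12.03 TPM, and Creb1 at 28.5 and 20.3 TPM. These genes were picked after their values were seen, and the differences have no test with 2 libraries.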
